A study of Mus musculus with 10 samples.

Results

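The Gimap genes encode the GTPases of immunity-associated proteins, a family of lymphocyte GTP-binding proteins. The 8 mouse members listed for this work, Gimap1, Gimap3, Gimap4, Gimap5, Gimap6, Gimap7, Gimap8 and Gimap9, were selected on the annotated symbol of their probe sets and, within a symbol, on the highest mean over the 10 arrays, out of 19938 genes with such a probe set. Each had 1 probe set on the array, so the mean decided nothing, and all 8 had a mean above the filter on dim rows (4.52 log2) and were among the 14953 genes tested. The family was proposed with the genotype results of these arrays known, so its values describe it and are no independent evidence of a change.

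B220+ cells were sorted from pre-B colonies after 7 days in methylcellulose, from 5 Hspa9+/- mice (heterozygous) and 5 Hspa9+/+ littermates (wild type), 1 Mouse Gene 1.0 ST array per mouse. CFU-PreB colonies grow from single committed B cell precursors, and Hspa9 encodes mortalin, a chaperone of the mitochondrial matrix. The comparison asks what loss of 1 Hspa9 allele does to expression in these precursors. The labels give no strain, age or sex and do not say how the allele was disrupted, and since the allele is carried by the whole mouse, every marrow cell type has it. Values are the deposited RMA log2 expression, and differences are heterozygous minus wild type.

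Gimap proteins share a GTP-binding domain, and several are anchored by their C terminus in intracellular membranes. They are known mainly from T cells and mature B cells, where loss of single members shortens lymphocyte survival: Gimap5 deficiency causes lymphopenia in rats and mice, and mice lacking Gimap1 in lymphocytes have few mature T and B cells. In mouse and rat the genes lie side by side in 1 cluster. In the RefSeq annotation of GRCm38.p6 this cluster is on chromosome 6, and the order is Gimap8 (48647186 to 48660875), Gimap9, Gimap4, Gimap6, Gimap7, Gimap1, Gimap5 (48746197 to 48754200) and Gimap3 (48764464 to 48770851), with no other protein-coding gene between them.

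The sequences shown are the start regions of the 3 members with an unadjusted p under 0.05, because these are the ones the results turn on and 2 of them, Gimap5 and Gimap3, are next to each other. Each runs from 250 bases before to 50 after the annotated start, 5′ to 3′ on the gene's strand, from RefSeq (GRCm38.p6). Capitals mark AGGAAG or its reverse complement, a form of the site recognised by ETS family factors.
Gimap3, chr6:48770802-48771101, minus strand: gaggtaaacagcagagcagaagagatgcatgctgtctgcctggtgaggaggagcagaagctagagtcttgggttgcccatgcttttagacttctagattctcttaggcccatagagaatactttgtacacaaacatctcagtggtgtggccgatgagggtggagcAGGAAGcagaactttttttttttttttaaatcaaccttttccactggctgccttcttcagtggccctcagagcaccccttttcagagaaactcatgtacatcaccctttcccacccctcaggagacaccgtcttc
Gimap5, chr6:48745947-48746246, plus strand: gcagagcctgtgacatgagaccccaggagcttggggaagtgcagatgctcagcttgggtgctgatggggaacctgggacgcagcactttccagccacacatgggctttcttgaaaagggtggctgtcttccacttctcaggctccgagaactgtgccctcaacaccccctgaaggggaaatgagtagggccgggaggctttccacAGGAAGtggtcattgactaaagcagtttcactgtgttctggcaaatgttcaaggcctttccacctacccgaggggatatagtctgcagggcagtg
Gimap4, chr6:48684328-48684627, plus strand: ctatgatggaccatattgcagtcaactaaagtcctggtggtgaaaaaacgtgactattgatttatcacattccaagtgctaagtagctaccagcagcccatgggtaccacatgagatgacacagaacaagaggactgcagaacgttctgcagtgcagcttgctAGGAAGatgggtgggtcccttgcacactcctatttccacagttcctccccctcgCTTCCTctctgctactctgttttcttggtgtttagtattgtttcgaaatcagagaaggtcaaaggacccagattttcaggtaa
The marked letters lie 85 bases before the start in Gimap3, 45 before it in Gimap5, and 87 and 33 before it in Gimap4.

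Over the 9 start regions of the 8 genes (Gimap8 has 2), AGGAAG was present in 7, from 7 genes, with Gimap6 the gene without these letters. It is present in 35.4% of the 32851 start regions of all genes. Other forms of the ETS site were not searched, so a gene without these letters may still hold such a site. The letters TTCNNNGAA, the palindrome bound by STAT5, were present in 4 of the 9, those of Gimap3, Gimap6, Gimap7 and one of Gimap8, against 8.30% of all start regions. STAT5 is the factor that IL-7 activates in B cell precursors. The RUNX core TGTGGT was present in 3 of the 9 (Gimap1, Gimap4 and Gimap7) against 16.8% of all. The FOXO letters TGTTTAC were found in 1, Gimap3, against 3.65% of all, and the RBPJ letters TGGGAA also in Gimap3 alone, against 25.6%. The E-box CANNTG was in 7 of the 9 and in 72.3% of all start regions. All motifs were searched on both strands, were picked with the expression results known, and may share bases with one another. A match describes the letters only.

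The arrays differed in the level of macrophage genes, both within each genotype and on average between the genotypes. Hspa9 was 9.52, 8.92, 9.30, 9.21 and 8.97 in heterozygous arrays 1 to 5, against 9.49, 9.57, 10.36, 10.17 and 9.99 in wild type arrays 1 to 5, a difference of -0.73 (exact two-sided permutation p = 0.0159 over 252 splits, limma adjusted p = 0.345). Wild type 1 thus lay below heterozygous 1. The B lineage gene Cd79a was high on the arrays of both genotypes, at 11.68 ± 0.104 in heterozygous and 11.82 ± 0.198 in wild type cells (SD, n = 5 each). The mean of the whole B lineage list was 10.11 in heterozygous and 10.48 in wild type arrays. Of its 13 tested genes, 3 were lower in heterozygous cells at an unadjusted p under 0.05 by limma (against 4.25% of all genes). Ptprc, which encodes the sorted antigen B220, was at 8.99 ± 0.833 in heterozygous and 9.67 ± 0.302 in wild type cells, with heterozygous 4 and 5 low at 8.33 and 7.89 (adjusted p = 0.490 by limma). Macrophage list means ran from 6.81 to 9.56 in heterozygous and from 5.49 to 8.94 in wild type arrays, with the highest values in heterozygous 2 and wild type 1. These 2 arrays also stood at one end of the first principal component, which held 52.8% of the variance, and results are given with and without them where they matter.

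None of the 8 Gimap genes changed between genotypes by limma's adjusted p over all 14953 genes, and 0% of all genes did. At an unadjusted p under 0.05 there were 3 of 8, Gimap3 and Gimap5 with lower and Gimap4 with higher means in heterozygous cells. The background share of that rule was 11.0% of all genes (6.79% higher, 4.25% lower), and since the family was proposed with results known nothing is read from the member count. The genotypes overlapped in all 8 members, whereas 2.28% of all genes had no overlap (1.47% higher and 0.809% lower in heterozygous cells). The members did not share a direction: 3 differences were positive and 5 negative, from -0.80 to 0.39, with a median of -0.13 against 0.058 for all genes tested. Their median size without regard to sign was 0.27, against 0.15 for all genes. Nothing is read from this comparison either, for the same reason as the count.

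**Figure D1:**
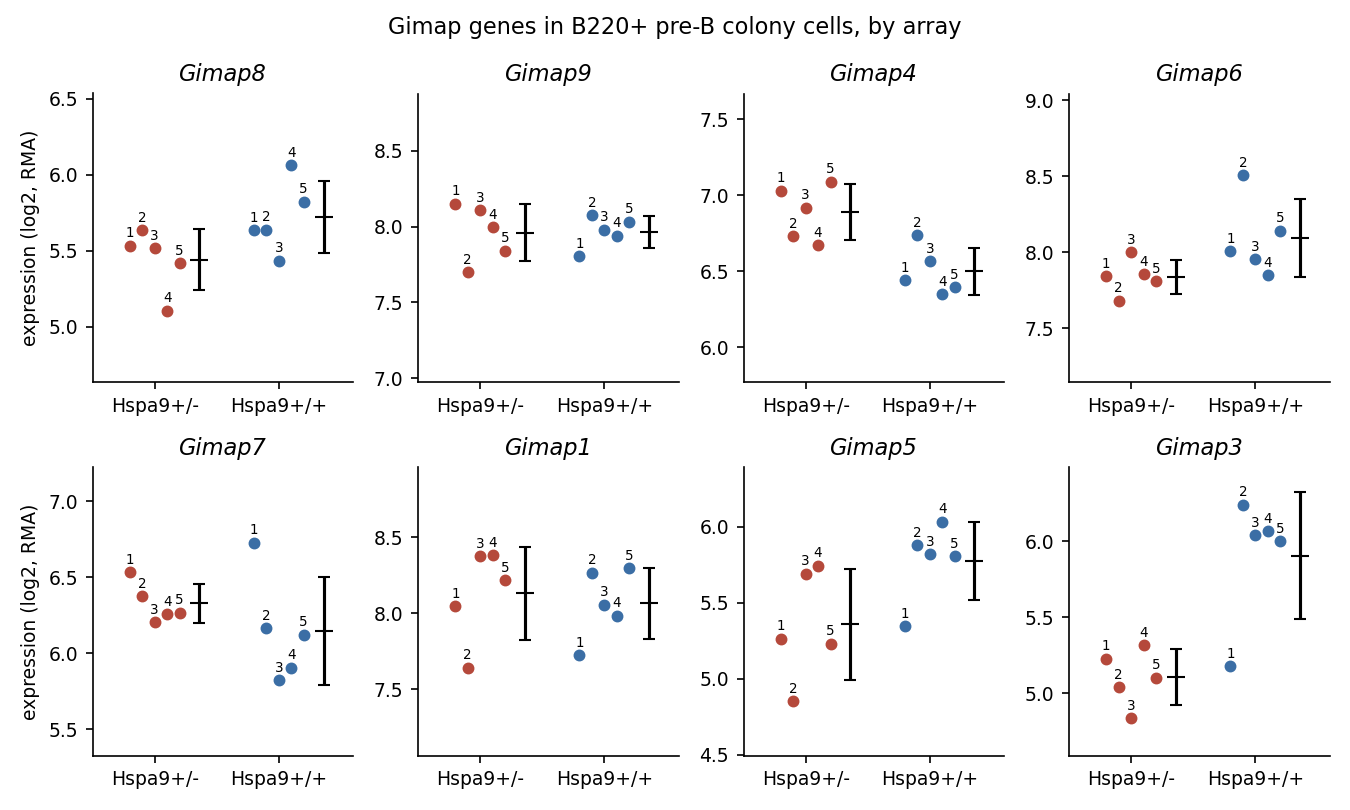
Expression (log2, RMA) of each Gimap gene on every array, in chromosomal order, with heterozygous arrays left and wild type arrays right. Numbers are the replicate numbers, and the black bar is the mean with 1 SD (n = 5). In Gimap3 the wild type array 1 lies among the heterozygous arrays and the other wild type arrays lie above all of them.

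Gimap3 and Gimap5 are neighbouring, closely related members. Mouse Gimap3 is known as a membrane-anchored regulator of T cell survival, and Gimap5 as a lysosomal membrane protein needed for survival of naive T cells. Gimap3 (probe set 10544588) was at 5.23, 5.04, 4.84, 5.32 and 5.10 in heterozygous arrays 1 to 5, against 5.18, 6.24, 6.04, 6.07 and 6.002 in wild type arrays 1 to 5. All 5 heterozygous arrays were thus low, 4 wild type arrays were high, and wild type 1 was as low as the heterozygous ones. The probe set was dim and lay below the median row, at means of 5.10 in heterozygous and 5.90 in wild type cells. This limits the percentage that follows. The difference was -0.80 (SE 0.188, 95% interval -1.21 to -0.39), or 57.4% of the wild type level (43.1 to 76.5%). By limma this ranked 58 of all genes by p (unadjusted p = 0.00134), but the adjusted p was 0.345. Without wild type 1 the difference was -0.98 and the adjusted p was 0.0224. Without both wild type 1 and heterozygous 2 it was -0.97 with an adjusted p of 0.0313. With array weights, which gave wild type 1 the lowest weight, it was -0.95 with an adjusted p of 0.0253. Leaving out 1 of the other 9 arrays gave no adjusted p under 0.05.

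Gimap5 (probe set 10538142) was at 5.26, 4.85, 5.69, 5.74 and 5.23 in heterozygous arrays 1 to 5. In wild type arrays 1 to 5 it was at 5.34, 5.88, 5.82, 6.03 and 5.81. Here too wild type 1 was the low wild type array, and heterozygous 2 was the lowest of all 10. This probe set too was dim, at means of 5.36 in heterozygous and 5.78 in wild type cells, which limits the percentage that follows. The difference was -0.42 (SE 0.185, interval -0.83 to -0.013) or 74.7% of the wild type level, with limma's unadjusted p = 0.0441 and adjusted p = 0.448. It was -0.53 without wild type 1 and -0.29 without heterozygous 2, and the unadjusted p was under 0.05 in 3 of the 10 fits with 1 array left out. RefSeq lists Gimap5 among the synonyms of Gimap3, and the probe sequences were not used here, so signal shared between the 2 probe sets was not tested.

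Gimap4 had the largest positive difference of the 8. In mouse T cells the protein is known to speed up the execution of programmed cell death. Its probe set (10538126) gave 7.03, 6.73, 6.92, 6.67 and 7.09 in heterozygous arrays 1 to 5, against 6.44, 6.74, 6.57, 6.35 and 6.40 in wild type arrays 1 to 5. Heterozygous 1, 3 and 5 lay above every wild type array, while wild type 2 lay just above heterozygous 2 and 4. The difference was 0.39 (SE 0.116, interval 0.14 to 0.64), or 131% of the wild type level, at an unadjusted p = 0.00627 and an adjusted p = 0.349 by limma. Leaving out 1 array moved it between 0.34 and 0.45, with an unadjusted p of at most 0.0181 in all 10 fits. The opposite signs of Gimap4 and Gimap3 were noticed in these data, and the contrast between the 2 genes was not tested.

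Gimap7 is a GTPase known, from the human protein, to form dimers that activate GTP hydrolysis. It was at 6.53, 6.38, 6.20, 6.26 and 6.27 in heterozygous arrays and at 6.73, 6.17, 5.82, 5.91 and 6.12 in wild type arrays 1 to 5. Wild type 1 was the highest array of all, and the other wild type arrays lay below every heterozygous one. The difference was 0.18 (SE 0.160, interval -0.17 to 0.53, adjusted p = 0.637). It depended on single wild type arrays: without wild type 1 it was 0.32 (limma unadjusted p = 0.0162, adjusted p = 0.270), without wild type 3 it was 0.098 (unadjusted p = 0.557) and without wild type 4 it was 0.12 (unadjusted p = 0.501).

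Gimap6, whose protein takes part in autophagy through a member of the ATG8 family, was at 7.84, 7.68, 7.998, 7.86 and 7.81 in heterozygous arrays, against 8.004, 8.51, 7.96, 7.85 and 8.14 in wild type arrays. The groups overlapped, and wild type 2 was the highest array. The difference was -0.25 (SE 0.128, interval -0.54 to 0.026, adjusted p = 0.482), and -0.15 without wild type 2. Gimap8, a large member that carries several GTP-binding domains in tandem, was at 5.53, 5.64, 5.52, 5.10 and 5.42 in heterozygous arrays. In wild type arrays it was at 5.64, 5.64, 5.43, 6.06 and 5.82. Heterozygous 4 was lowest and wild type 4 highest, and the difference was -0.28 (SE 0.138, interval -0.58 to 0.027, adjusted p = 0.481).

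Gimap1 and Gimap9 had the smallest differences. Gimap1, needed for the survival of mature B and T cells in mice, was at 8.05, 7.64, 8.37, 8.38 and 8.22 in heterozygous arrays and at 7.72, 8.27, 8.05, 7.98 and 8.30 in wild type arrays. Its lowest arrays were heterozygous 2 and wild type 1, 1 of each genotype. The difference was 0.068 (SE 0.163), and the interval from -0.29 to 0.43 leaves changes of that size in either direction possible. Gimap9 was at 8.15, 7.70, 8.11, 7.99 and 7.84 in heterozygous arrays, against 7.80, 8.08, 7.98, 7.94 and 8.03 in wild type arrays. Heterozygous 2 and wild type 1 were again the lowest arrays. The difference was -0.0080 (SE 0.108, interval -0.25 to 0.23). Across the family the mean of the 8 genes was 6.63 ± 0.103 in heterozygous and 6.77 ± 0.125 in wild type arrays (SD, n = 5 each), a difference of -0.14 in which members of both signs partly cancel.

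**Figure D2:**
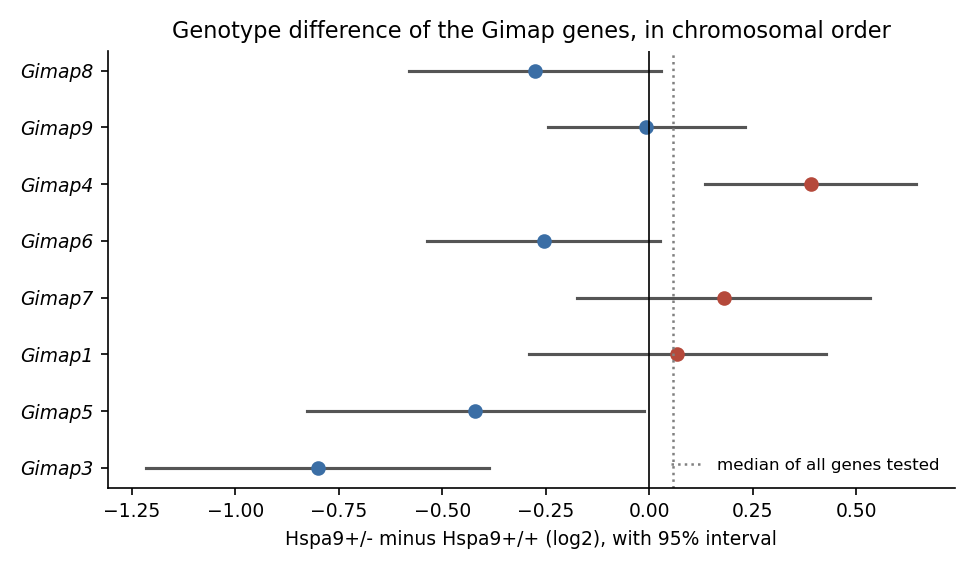
Heterozygous minus wild type difference (log2) of each Gimap gene with its 95% interval from limma, in chromosomal order from top to bottom. The dotted line is the median of all 14953 genes, 0.058. The intervals of Gimap3 and Gimap5 lie below 0, that of Gimap4 lies above 0, and the other 5 include 0.

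Members were compared with each other over the 10 arrays, as a description of likeness among arrays that share a sort and a normalization. Of the 28 pairs, 16 had a Pearson r above 0, and the median r was 0.18 (0.12 after each genotype's mean was subtracted). The highest r was 0.72, between the neighbours Gimap5 and Gimap3 (Spearman 0.85), and it was 0.70 without wild type 1 and heterozygous 2. Both genes had lower means in heterozygous arrays, and after subtraction of genotype means this pair was at 0.50. The highest pair was then Gimap1 and Gimap5 at 0.83, whose r as measured was 0.58 and -0.0053 without those 2 arrays. As measured, Gimap9 and Gimap1 followed at 0.71, but at 0.15 without those 2 arrays, on which both genes were low. The lowest measured r was -0.69, between Gimap7 and Gimap5, and -0.76 without them. Gimap7 was also at -0.65 with Gimap3. The ranking changed without wild type 1 and heterozygous 2. The lowest r was then -0.87, between Gimap4 and Gimap5 (-0.49 as measured). The highest was 0.74, between Gimap4 and Gimap7 (0.29 as measured).

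**Figure D3:**
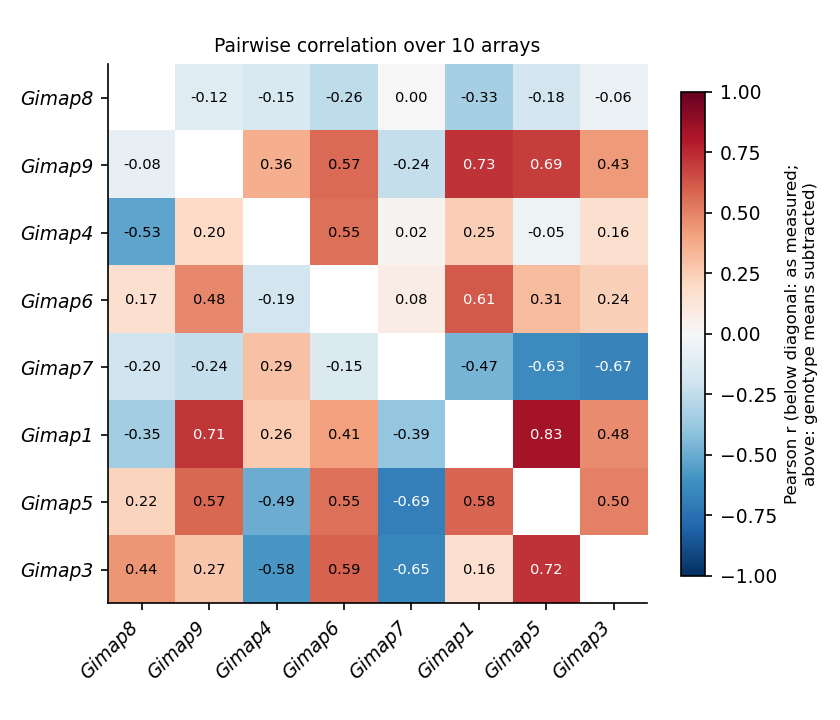
Pearson r between Gimap genes over the 10 arrays, as measured below the diagonal and after subtracting each genotype's mean above it. Gimap5 and Gimap3 reach 0.72 and Gimap7 has negative r with both.

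Marker lists of other stages and cell types differed in level between the genotypes, though none of their genes passed adjustment. Counts at an unadjusted p under 0.05 are to be read against 6.79% of all genes higher and 4.25% lower. Immature and mature B cell list means were 7.63 to 8.001 in heterozygous and 8.39 to 9.12 in wild type arrays, with 8 of 11 tested members lower at an unadjusted p under 0.05. T cell and NK cell list means were 6.05 to 6.38 in heterozygous and 5.26 to 5.85 in wild type arrays, with 7 of 9 tested members higher. The means of neither list overlapped between genotypes. Of tested members, 6 of 11 in the B cell list were lower without overlap, against 0.809% of all genes. In the T cell and NK cell list 3 of 9 were higher without overlap, against 1.47% of all genes. The defining T cell gene Cd3e was dim at 5.402 in heterozygous and 5.02 in wild type cells, where the filter stood at 4.52, and Cd3d, Cd3g, Lck and Tcf7 were not among the genes tested. At the same unadjusted p, 3 of 13 B lineage genes were lower, Fcrla at -0.94 (SE 0.144), Ralgps2 at -1.35 (SE 0.279) and Cd22 at -0.98 (SE 0.230). Of the 13, 2 were lower without overlap, against 0.809% of all genes. In the plasmacytoid dendritic cell list 4 of 7 genes were higher, while 0 of 15 macrophage, 0 of 11 neutrophil and 0 of 7 erythroid and megakaryocyte genes met that p. The macrophage list still had a median difference of 0.93, with means of 7.52 in heterozygous and 6.62 in wild type arrays. Its array means spread widely within each genotype (6.81 to 9.56 and 5.49 to 8.94). Endothelial cells also express Gimap genes, and of their 7 tested markers 1 was lower, the adhesion molecule Pecam1 at -0.51 (SE 0.171), which B cell precursors carry too, and 1 higher, Egfl7 at 0.28 (SE 0.120); Kdr, Tek and Emcn were below the filter. The part of these markers in the Gimap differences was not tested beyond the fits given next. In sorted bulk cells, a shift in the share of cells of a type and a shift in RNA per cell cannot be told apart.

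The 2 arrays highest in macrophage genes held the lowest Gimap5 and the highest Gimap7 value. Heterozygous 2, with a macrophage list mean of 9.56, had Gimap5 at 4.85. Wild type 1, with 8.94, had Gimap7 at 6.73. The B lineage mean of wild type 1, 10.27, also lay within the heterozygous range of 9.90 to 10.30, while the other wild type arrays were at 10.49 to 10.57. After each genotype's mean was subtracted, Pearson r with the macrophage mean was -0.58 for Gimap3, -0.77 for Gimap5 and 0.74 for Gimap7. It was also -0.70 for Gimap1 and -0.59 for Gimap9, but -0.041 for Gimap4, 0.043 for Gimap6 and 0.042 for Gimap8. With the B lineage mean it was 0.93 for Gimap9, 0.88 for Gimap5, 0.81 for Gimap1, 0.51 for Gimap3 and 0.50 for Gimap6. In Gimap4, Gimap8 and Gimap7 it was 0.16, -0.036 and -0.50. Wild type 2 had a macrophage mean of 7.43 and Gimap3 at 6.24, while heterozygous 1, 3, 4 and 5, with macrophage means of 6.81 to 7.16, had Gimap3 at 4.84 to 5.32. Those arrays differ in genotype as well, so the part of macrophage genes in Gimap3 was not tested by comparing them. With the macrophage mean as a covariate the difference was -0.68 for Gimap3 (limma unadjusted p = 0.00186, adjusted p = 0.160), -0.26 for Gimap5 (unadjusted p = 0.0902), 0.39 for Gimap4 (unadjusted p = 0.00888) and 0.048 for Gimap7. With the T cell and NK cell mean, which itself separates the genotypes, they were -0.34 for Gimap3, 0.064 for Gimap5, 0.22 for Gimap4 and -0.34 for Gimap7, and Hspa9 was at 0.051. The unadjusted p by limma was then 0.339 for Gimap3, 0.850 for Gimap5 and 0.361 for Gimap4. With the immature and mature B cell mean, which also separates them, they were -0.41 for Gimap3, -0.18 for Gimap5 and 0.59 for Gimap4, with an unadjusted p of 0.294, 0.654 and 0.0290 in that order. Genotype and these 2 marker means cannot be told apart. The macrophage mean overlapped between genotypes but averaged 7.52 in heterozygous against 6.62 in wild type arrays, so it is partly tied to genotype too.

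**Figure D4:**
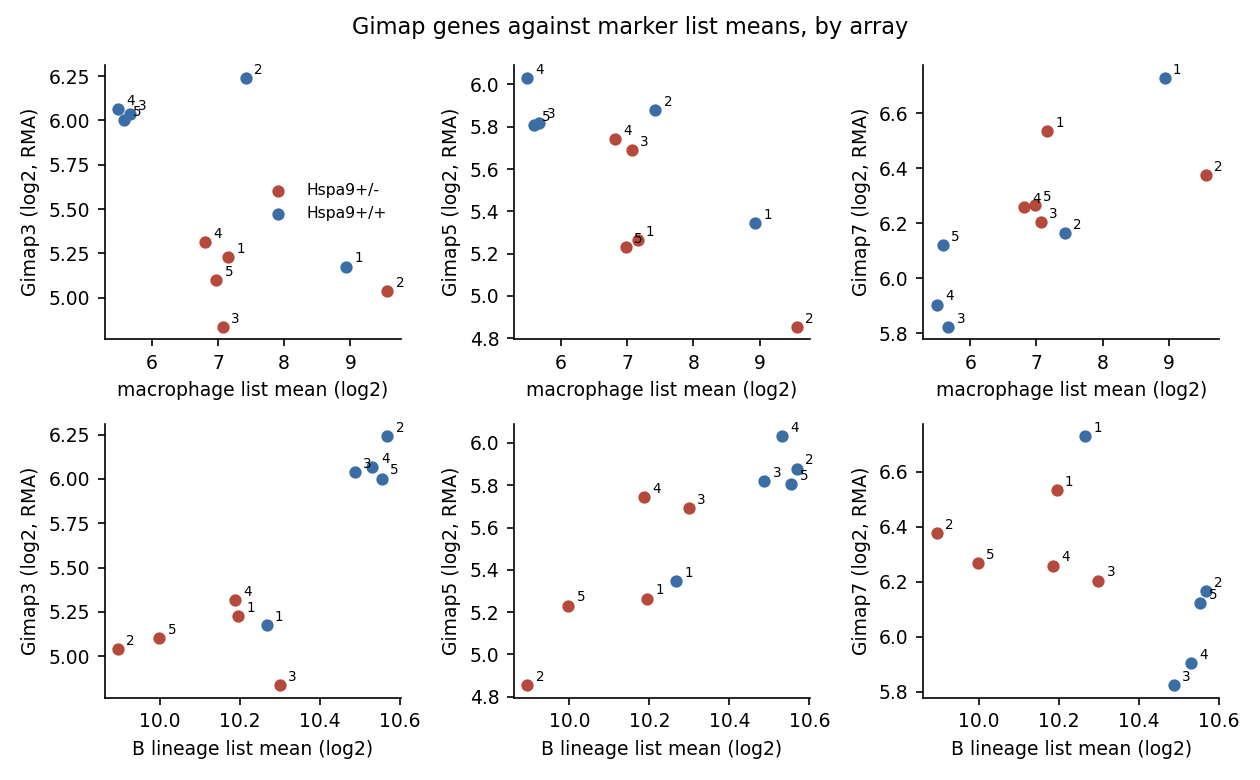
Gimap3, Gimap5 and Gimap7 (log2, RMA) against the mean of the macrophage list (top) and of the B lineage list (bottom) on each array, heterozygous in red and wild type in blue, with replicate numbers. Heterozygous 2 and wild type 1 have the highest macrophage means, 9.56 and 8.94, and the lowest B lineage means of their genotypes, 9.90 and 10.27.

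Genes beside the cluster were read from the gene table, 6 protein-coding genes on each side. Of 12, 10 were tested, 4 had higher means in heterozygous cells at an unadjusted p under 0.05 (against 6.79% of all genes) and none lower, and none passed adjustment. They were Tmem176b at 0.74 (SE 0.230) and Tmem176a at 0.81 (SE 0.259), overlapping genes for membrane proteins known from dendritic and myeloid cells, on the Gimap3 side. On the Gimap8 side they were Repin1, a zinc finger gene, at 0.54 (SE 0.177) and Gm5111 at 0.81 (SE 0.278). The Gimap gene nearest to Tmem176b is Gimap3, whose difference had the opposite sign.

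Partners and relatives of the Gimap proteins did not pass adjustment either. Of BCL2 family genes, which mouse Gimap proteins have been reported to bind, 2 of 13 tested had higher means at an unadjusted p under 0.05 (against 6.79% of all genes), the death activator Hrk at 0.29 (SE 0.0918) and the effector relative Bok at 0.24 (SE 0.103). In the same list 1 had a lower mean (against 4.25% of all genes), so both counts are near the background. It was the p53 target Pmaip1 at -0.34 (SE 0.138). The list median was 0.099. Of ATG8 family and autophagy genes, to which Gimap6 is tied, 0 of 13 met that p, the median was -0.035 and the smallest p belonged to Atg16l1 at -0.16 (SE 0.110). The interferon-inducible IRG and GBP immune GTPases, which are unrelated to Gimap genes in origin but also act in immune cells, had 0 of 6 tested and a median of -0.17, with Gbp3 at -0.44 (SE 0.210) and Irgm1 at -0.18 (SE 0.131). 9 of the 15 listed were not tested.

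Genes of lymphocyte quiescence, which like Gimap genes are known as high in resting lymphocytes, had lower means in 5 of 14 at an unadjusted p under 0.05, against 4.25% of all genes, with a median of -0.37. They included Cdkn1b, which encodes the cell cycle inhibitor p27, at -0.60 (SE 0.147), the antiproliferative Btg2 at -0.77 (SE 0.203), and the transcription factors Klf3 at -0.49 (SE 0.160) and Klf2 at -0.61 (SE 0.197). Cdkn1b and Btg2 did not overlap between genotypes, against 0.809% of all genes that were lower without overlap. In the Notch list 1 of 9 was lower (4.25% of all genes), the target Hes1 at -0.83 (SE 0.339), while Notch1 was at 0.14 (SE 0.110). Among lymphoid transcription factors 1 of 12 was higher (6.79% of all genes), Irf8 at 0.40 (SE 0.175), with Ikzf3, the Ikaros relative Aiolos, at -0.60 (SE 0.279). Single genes in lists of this size are near the background. In the pro-B and large pre-B list 4 of 11 were higher and 2 lower (6.79% and 4.25% of all genes), among them Dntt, the terminal transferase, at 1.49 (SE 0.443) and Rag1 of the recombinase at -0.79 (SE 0.231).

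The genes outside the family most like the mean of the 8 over the 10 arrays were Trit1, an enzyme that modifies transfer RNA (r = 0.97), Tmem163 (0.93), the signalling adaptor Traf5 (0.91), Fgd2 (0.91) and Amigo2 (0.91). After genotype means were subtracted they were Trit1 (0.95), Krt5 (0.95), Tmem163 (0.92), Drd2 (0.92) and Klk12 (0.92). They are the top of 14945 genes outside the family over 10 points, and Krt5, Drd2 and Klk12 were dim (4.84, 5.26 and 5.19 on average in heterozygous and 4.76, 5.12 and 4.98 in wild type cells). Tmem163 had a difference of -0.71 (SE 0.205, adjusted p = 0.349) and Trit1 one of -0.12 (SE 0.0916).

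**Figure D5:**
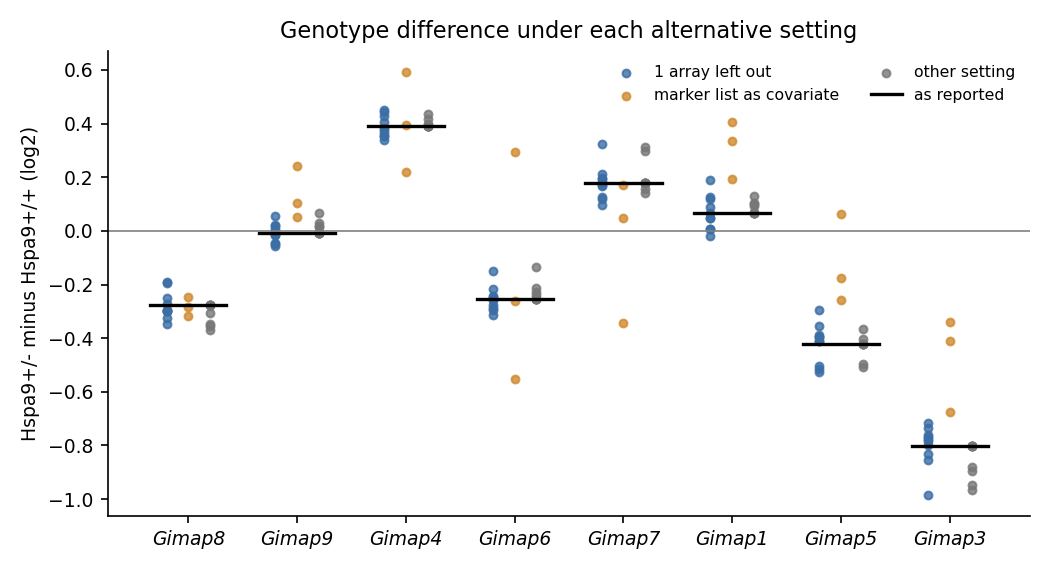
Heterozygous minus wild type difference (log2) of each Gimap gene as reported (black line) and under each alternative setting (points). Gimap3 stays between -0.98 and -0.34 and Gimap4 between 0.22 and 0.59, and Gimap8 stays below 0. Gimap1, Gimap5, Gimap6, Gimap7 and Gimap9 fall on both sides of 0. Gimap3, Gimap5 and Gimap8 were not fitted among rows above the median.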

How the data were processed

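RNA of B220+ cells was amplified with a NuGEN kit and hybridised to Mouse Gene 1.0 ST arrays, per the labels. Per the labels, the authors ran RMA in Affymetrix Expression Console and deposited 1 log2 value per probe set and array; its version, build and annotation: not given in the sources used here. This method removes most of a shift shared by all genes.

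Names for the 35556 probe sets came from the platform's annotation table (21789 with 1 symbol, 1621 with several, 12146 not listed), and symbols were updated by Entrez identifier through the RefSeq table of GRCm38.p6 (21698 matched). 1 probe set per symbol was kept, that of highest mean, and only rows above the 25th percentile of row means (4.52 log2) were tested. Array medians were 5.38 to 5.49, and the 10 arrays limit the precision.

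The genotype contrast was fitted by lmFit and eBayes (limma 3.58.1, R 4.3.3) on all genes, with Benjamini-Hochberg adjustment over 14953 genes and a threshold of 0.05, after a test on simulated data. Hspa9 was also tested by exact permutation, whose smallest p is 0.0079. The members and lists were chosen with earlier results of these data known. Named genes were the members, Hspa9, Ptprc, up to 4 neighbours and up to 4 genes of a list by smallest p, and the 5 most like the family mean over all arrays and after subtracting genotype means. Any other gene was chosen after its values were seen. Alternatives were other filters, probe set rows, normalizations, variance models, array weights, a replicate block, marker covariates and arrays left out. The labels do not say whether replicate numbers pair the samples. Correlations of deviations between same-numbered arrays ran from -0.53 to 0.53, and no heterozygous array matched its own number best. This does not settle whether litter or handling was shared.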

Additional observations from a re-analysis of the deposited data

Results flagged for a closer look

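Gimap3 in wild type array 1 stood far from the other wild type arrays, at 5.18 against 6.002 to 6.24, a gap of 0.83 that is 77.6% of the range of that genotype. It was the 1 such array among 22 groups of 5 examined (8 Gimap genes, their mean, Hspa9 and Ptprc in each genotype), where chance gives about 1 in 20. The same array was the lowest wild type array for Hspa9 (9.49) and the highest for macrophage genes (8.94).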

How the results depend on the processing

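Over up to 22 alternatives, Gimap3, Gimap4 and Gimap8 kept their sign in every one fitted, and no member but Gimap3 passed adjustment in any. The count of Gimap genes past adjustment was 0, and 1 (Gimap3) with array weights, without wild type 1 and without wild type 1 and heterozygous 2 together. All genes past adjustment numbered 0, against 137 with array weights, 26 without both arrays and 0 to 22 without 1 array (22 without wild type 1, 3 without heterozygous 2). Gimap genes at an unadjusted p under 0.05 numbered 3, against 5 with array weights and 1 among rows above the median (5 members fitted, mean difference 0.075). They numbered 1, Gimap4, with the immature and mature B cell mean as covariate (mean difference of the members 0.10). With the T cell and NK cell mean they also numbered 1, but this was Gimap6, at -0.55 (limma unadjusted p = 0.0410). Without 1 array they numbered 2 to 4 and the mean difference was -0.18 to -0.097. The share of all genes at that p was 11.0% in the fit as reported and was not worked out for the alternatives. Nothing is read from these counts. Hspa9 was at -0.79 with array weights (adjusted p = 0.0381), 0.051 with the T cell and NK cell covariate and -0.84 to -0.62 without 1 array. Signs turned for Gimap6 (0.29) with the B cell covariate, for Gimap5 (0.064) and Gimap7 (-0.34) with the T cell and NK cell covariate, for Gimap1 without wild type 1 (-0.018; 0.19 at most without 1 array), and for Gimap9, at 0.031 with quantile normalization, 0.018 with cyclic loess, 0.065 with array weights, 0.051, 0.24 and 0.10 with the macrophage, B cell and T cell and NK cell covariates, 0.016 without both arrays and -0.056 to 0.057 without 1 array. The cause of these changes was not tested. With the replicate block the count at an unadjusted p under 0.05 was 3 and Gimap3 had an adjusted p of 0.555 by limma. The block changed no call, and the labels give same-numbered arrays nothing in common but the number. Quantile normalization and cyclic loess put the median of all genes at 0.014 and 0.010, against 0.058. Dim probe sets limit Gimap3, Gimap5 and Gimap8, which lay below the median row.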
